A study of Mus musculus with 8 samples.

Results

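The genes encoding the constant regions of the immunoglobulin heavy chain were examined in the stromal vascular fraction (SVF) of gonadal white adipose tissue (WAT), the cells that remain when adipocytes are floated off a collagenase digest. All 8 were taken by gene name from a table of 54532 genes: Ighm, Ighd, Ighg1, Ighg2b, Ighg2c, Ighg3, Igha and Ighe. Bulk RNA sequencing was available for 8 male C57BL/6J mice with no gene deletion or transgene in the labels, 4 treated with control Ab (mice 1, 2, 6 and 9) and 4 with anti-BAFF Ab (mice 5, 7, 8 and 10). All mice started a high-fat diet (HFD, 60% of calories from fat) at 6 weeks of age by the series' design text (the methods give older ages for the mice as obtained), and the groups were formed by a glucose tolerance test after 12 weeks of it. They then changed to normal chow diet (NCD, 16% of calories from fat) while receiving either Sandy-2, which neutralises the B cell survival factor BAFF, or an IgG1k isotype control, at 2 mg/kg every 2 weeks for 6 weeks until week 18. Each library came from 1 fat pad of 1 mouse, and mice on NCD throughout were not analysed here. The comparison asked how much RNA of each antibody class the fat pads held with and without BAFF neutralization, and whether the classes kept their proportions.

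The constant region sets the class, or isotype, of an antibody: mu for IgM, delta for IgD, gamma for IgG, alpha for IgA and epsilon for IgE. A resting mature B cell splices a single long transcript into both mu and delta messages, whereas class switching deletes the DNA in between and joins the variable region to a gamma, epsilon or alpha gene further downstream. Plasma cells make far more heavy chain message than resting B cells, and their IgM and IgA can be polymerised with the joining chain, encoded by Jchain. C57BL/6 mice carry Ighg2c where some other strains carry Ighg2a. In fat, B-1 and B-2 cells and antibody-secreting cells are all known sources of these messages. The injected antibodies were themselves proteins and add no RNA to such counts.

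The 8 genes lay in a row on the minus strand of chromosome 12 (mm10, the build in the submitters' processing notes). Ighm occupied positions 113418558 to 113422730 and Ighd 113406604 to 113416324, with its 5′ end 6.406 kb downstream of that of Ighm. The gamma genes followed in the order Ighg3 (113356224 to 113361232), Ighg1 (113325240 to 113330523), Ighg2b (113302965 to 113307933) and Ighg2c (113285325 to 113288932). Ighe (113269260 to 113273248) came next, and Igha (113254830 to 113260236) lay farthest, 162.5 kb downstream of Ighm. The table gives 1 count per gene, which does not separate secreted from membrane-bound forms or rearranged from germline transcripts. None of the 8 overlapped another row of the table. The 4 gamma genes resemble one another closely, and the treatment of reads that fit more than 1 of them, like the use of strand, was not given in the sources used here, which leaves the split among gamma genes uncertain.

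Library totals ran from 13562340 to 16778627 counts with control Ab and from 14555098 to 18548024 with anti-BAFF Ab, so 3 counts corresponded to between 0.165 and 0.219 CPM (counts scaled to an equal library total). The quasi-likelihood (QL) test of edgeR, with Benjamini-Hochberg adjustment, covered 15963 genes, of which 9 were lower and 0 higher with anti-BAFF Ab at an adjusted p below 0.05. At an unadjusted p below 0.05, 198 were lower and 106 higher. Control Ab mouse 2 and anti-BAFF Ab mouse 7 stood apart by epididymis markers, which summed to 1569 and 1631 CPM against 12.9 to 674 CPM in the others. Anti-BAFF Ab mouse 5 stood apart by neutrophil markers, at 164 CPM against 27.4 to 36.8 CPM. The 10 B cell markers summed to 63.2 to 75.2 CPM with control Ab and 29.8 to 55.0 CPM with anti-BAFF Ab. The 5 plasma cell markers summed to 308 to 424 CPM and 208 to 320 CPM, with Sdc1, which epithelial and other cells also express, at 223 CPM and 225 CPM on average. By the edgeR QL test, 1 of these plasma cell markers (Jchain) was called lower, beside 0.0564% of all genes tested. At an unadjusted p below 0.05, 2 (Jchain and Mzb1) were lower, beside 1.24% of all genes tested. T cell markers overlapped, at 23.2 to 39.5 CPM against 18.9 to 34.2 CPM, and macrophage markers lay between 3277 and 4450 CPM in all 8 mice. The 5 mast cell markers summed to 245 to 479 CPM with control Ab and 441 to 636 CPM with anti-BAFF Ab. Of these 5, 0 were called and 3 (Cpa3, Mcpt4 and Kit) were higher at an unadjusted p below 0.05 by the edgeR QL test, beside 0.664% of all genes tested.

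Less heavy chain constant RNA was found after anti-BAFF Ab than after control Ab, and most of it was Ighm, the IgM heavy chain gene. Ighm fell 5.13-fold, while all other members tested had lower mean levels without passing the adjusted test. Summed over the 8 genes, heavy chain constant RNA averaged 1469 ± 308 CPM with control Ab and 293 ± 115 CPM with anti-BAFF Ab (SD, n = 4 each). IgM made up 95.3% and 93.1% of that total on average, and no class's share passed the test of a difference. In bulk tissue, fewer cells of a type and less RNA per cell cannot be told apart.

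Of the 8 members, 7 had enough counts to be tested and Ighe did not. Ighm was the only member called lower at an adjusted p below 0.05, 1 of 7 beside 0.0564% of all genes tested. At an unadjusted p below 0.05, 6 of the 7 were lower, beside 1.24% of all genes tested. The groups did not overlap, with control Ab-treated mice higher, for 3 of the 7, Ighm, Ighd and Igha, beside 0.952% of all genes tested. The 7 log2 fold changes lay between -3.15 and -1.26 with a median of -1.79, while the median over all genes tested was 0.00 and 48.5% of them were below 0. The members sit in 1 locus and are made by the same kinds of cell, and Ighm and Ighd share a transcript, so they are not independent of one another.

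**Figure D1:**
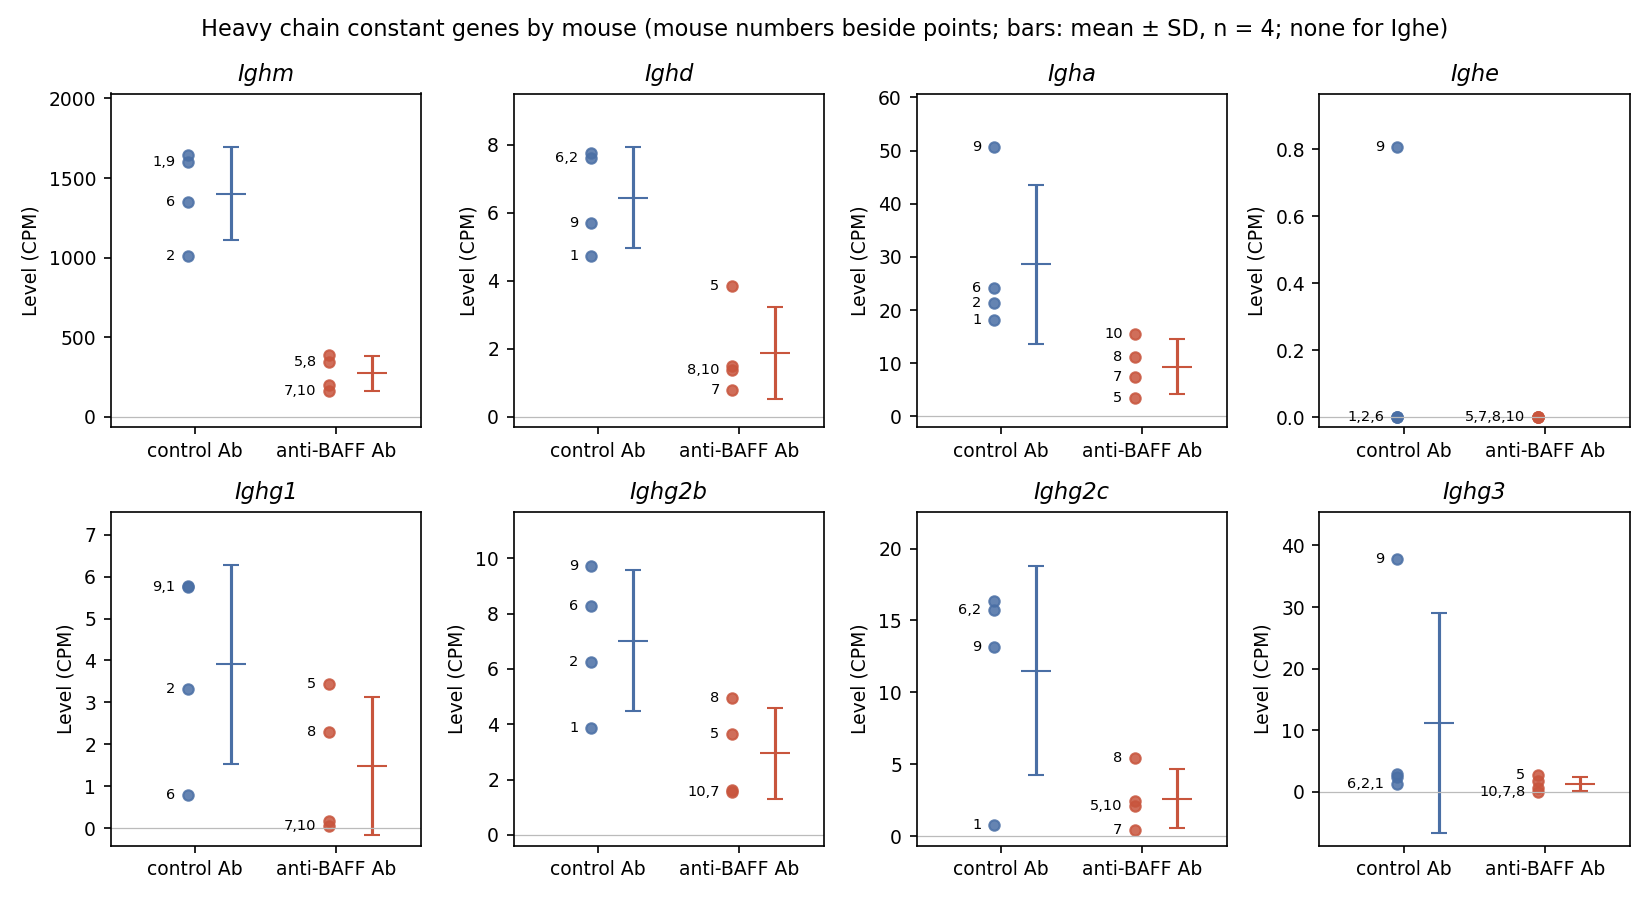
Level of each heavy chain constant gene in CPM (vertical axis, own scale per panel) in control Ab-treated (blue) and anti-BAFF Ab-treated (red) mice, 1 point per mouse with its number, and mean ± SD (n = 4) beside the points. Groups were separate for Ighm, Ighd and Igha, control Ab mouse 9 held the highest Ighg3 at 37.8 CPM, and Ighe was detected in that mouse alone.

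Ighm, the gene used by naive B cells, B-1 cells and IgM-secreting plasma cells, was measured at 1603, 1007, 1348 and 1642 CPM in control Ab mice 1, 2, 6 and 9. It stood at 345, 160, 387 and 200 CPM in anti-BAFF Ab mice 5, 7, 8 and 10. The lowest control Ab-treated mouse thus held more than the highest anti-BAFF Ab-treated mouse, and both mice with high epididymis genes were the lowest of their group. The means were 1400 ± 293 CPM and 273 ± 110 CPM (SD, n = 4), a log2 fold change of -2.36 (SE 0.30, 95% interval -3.04 to -1.68). Its adjusted p was 0.0448 by the edgeR QL test. This call sat close to its threshold: the adjusted p was 0.0518 with edgeR's robust option and lay between 0.0532 and 0.186 when 1 of the 8 mice was left out, with log2 fold changes between -2.59 and -2.19. Without both mice high in epididymis genes it was 0.110 at a log2 fold change of -2.32. By FPKM, the CPM per kilobase of gene length, Ighm ranked between 27 and 63 among all genes with control Ab and between 228 and 543 with anti-BAFF Ab.

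Ighd, which marks mature naive B cells and is spliced from the same primary transcript as Ighm, was far scarcer. Control Ab mice 1, 2, 6 and 9 held 4.71, 7.74, 7.61 and 5.70 CPM. Anti-BAFF Ab mice 5, 7, 8 and 10 held 3.84, 0.788, 1.37 and 1.49 CPM. The groups did not overlap, and anti-BAFF Ab mouse 5, the mouse with high neutrophil genes, was the closest to the controls. Means were 6.44 ± 1.48 CPM and 1.87 ± 1.35 CPM (SD, n = 4), and the log2 fold change of -1.79 (SE 0.44) did not pass the edgeR QL test (adjusted p 0.858). Without mouse 5 the log2 fold change was -2.41. DESeq2 gave Ighd a log2 fold change of -1.80 with an adjusted p of 0.0138 and called 2 members lower, Ighm and Ighd, beside 0.253% of the genes to which it gave an adjusted p.

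Igha, the constant gene of IgA, the class secreted across mucosal surfaces, had the second highest mean level after Ighm, although Ighg2c was higher per length in control Ab mice 2 and 6 and in anti-BAFF Ab mouse 5. It was measured at 18.2, 21.4, 24.1 and 50.6 CPM in control Ab mice 1, 2, 6 and 9. In anti-BAFF Ab mice 5, 7, 8 and 10 it stood at 3.50, 7.32, 11.2 and 15.5 CPM. These groups did not overlap either, and mouse 9 held more than 2 times the next control level. The means of 28.6 ± 14.9 CPM and 9.39 ± 5.15 CPM (SD, n = 4) gave a log2 fold change of -1.60 (SE 0.46) that did not pass either, at an adjusted p of 1.00 with the edgeR QL test and 0.0566 with DESeq2. Among anti-BAFF Ab-treated mice, the order for Igha differed from that for Ighd, with mouse 5 highest in Ighd and lowest in Igha.

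The 4 gamma genes, which encode the IgG subclasses, summed to 33.6 ± 22.9 CPM with control Ab and 8.32 ± 5.68 CPM with anti-BAFF Ab (SD, n = 4). Ighg2b was the most even of them, with 3.85, 6.27, 8.27 and 9.73 CPM in control Ab mice 1, 2, 6 and 9 and 3.64, 1.63, 4.96 and 1.54 CPM in anti-BAFF Ab mice 5, 7, 8 and 10. The groups overlapped through control Ab mouse 1 and anti-BAFF Ab mouse 8, and the other 3 control Ab-treated mice lay above every mouse given anti-BAFF Ab. Ighg2b had a log2 fold change of -1.26 (SE 0.43, unadjusted p 0.0160 by the edgeR QL test).

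Ighg2c, the subclass that interferon-gamma favours in this strain, stood at 0.806, 16.4, 15.7 and 13.1 CPM in control Ab mice 1, 2, 6 and 9. In anti-BAFF Ab mice 5, 7, 8 and 10 it stood at 2.09, 0.450, 5.42 and 2.48 CPM. Control Ab mouse 1, with 13 counts against 212 to 277 in the other controls, lay below 3 of the 4 anti-BAFF Ab-treated mice. The log2 fold change was -2.15 (SE 0.84, unadjusted p 0.0311 by the edgeR QL test).

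Ighg3, the subclass often made against polysaccharides without T cell help, was measured at 2.92, 2.48, 1.32 and 37.8 CPM in control Ab mice 1, 2, 6 and 9 and at 2.76, 0.619, 1.70 and 0.0552 CPM in anti-BAFF Ab mice 5, 7, 8 and 10. A single mouse, control Ab mouse 9, held 611 counts of Ighg3 against 18 to 47 in the other controls. The log2 fold change was -3.15 (SE 1.23, unadjusted p 0.0301 by the edgeR QL test) with all mice and -0.83 without control Ab mouse 9. DESeq2 marked the gene as a count outlier and gave it no p. The largest of the 7 log2 fold changes therefore rested on 1 mouse.

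Ighg1, the subclass that interleukin-4 favours, was measured at 5.77, 3.31, 0.805 and 5.76 CPM in control Ab mice 1, 2, 6 and 9. Anti-BAFF Ab mice 5 and 8 held 3.43 and 2.28 CPM, whereas mice 7 and 10 held 1 and 3 counts. The groups overlapped widely, and control Ab mouse 6 was below both anti-BAFF Ab mice 5 and 8. The log2 fold change of -1.43 had a 95% interval of -3.59 to 0.74 that included 0 (unadjusted p 0.171 by the edgeR QL test).

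Ighe, the constant gene of IgE, the class bound by mast cells, was detected in control Ab mouse 9 with 13 counts, or 0.805 CPM. The other 3 control Ab-treated mice and the 4 anti-BAFF Ab-treated mice had 0 counts, which allows a level of up to 0.165 to 0.219 CPM per mouse. Ighe did not pass the filter on low counts. Fitted without that filter, it had an unadjusted p of 0.0455 and an adjusted p of 0.979 by the edgeR QL test, with every count coming from 1 mouse, and DESeq2 gave an unadjusted p of 0.193. Control Ab mouse 9 thus held the highest level of Ighm, Igha, Ighg2b, Ighg3 and Ighe among the 8 mice, but not of Ighd or Ighg2c. For Ighg1, control Ab mice 1 and 9 held 93 counts each, at 5.77 and 5.76 CPM.

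The levels of different genes were set against one another per length, as FPKM from the deposited gene lengths. With control Ab, mean FPKM was 742 for Ighm, 10.7 for Igha, 8.68 for Ighg2c, 4.44 for Ighg3, 3.39 for Ighd, 2.62 for Ighg2b, 1.51 for Ighg1 and 0.127 for Ighe. In this order Ighm was separate from its neighbour, and each neighbouring pair below it overlapped in range. With anti-BAFF Ab, mean FPKM was 145 for Ighm, 3.52 for Igha, 1.97 for Ighg2c, 1.10 for Ighg2b, 0.985 for Ighd, 0.573 for Ighg1 and 0.511 for Ighg3, and Ighe was at 0. Here Ighm was again separate from Igha, Ighg3 was separate from Ighe, and the pairs in between overlapped. Ighm and Ighd were the steadiest members among control Ab-treated mice, with coefficients of variation of FPKM of 20.9% and 23.0%, and Ighg3 varied most among the tested genes, at 160%. After anti-BAFF Ab these coefficients were 40.4%, 71.9% and 93.3%.

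**Figure D2:**
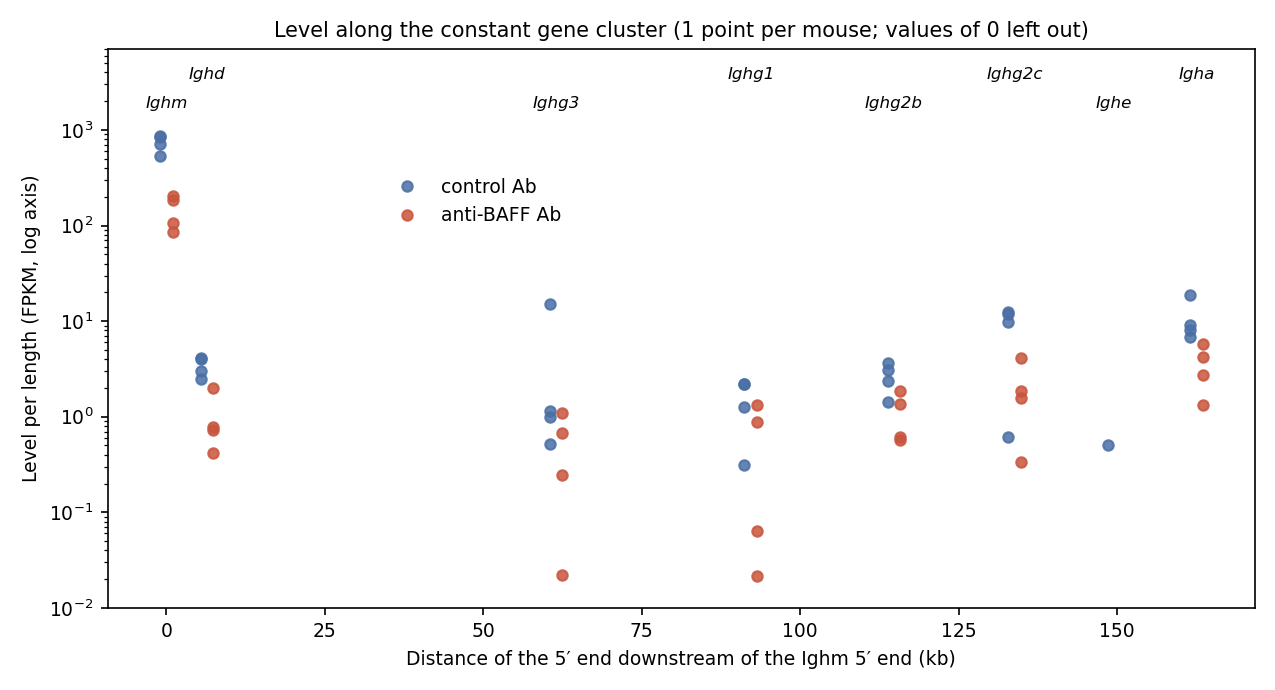
Level per length of each constant gene (FPKM, log axis) against the distance of its 5′ end downstream of the Ighm 5′ end (kb), 1 point per mouse, with values of 0 left out. Ighm lay above every other member in every mouse, and Igha, the gene farthest downstream, had the second highest mean in both groups.

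The shares of the classes asked whether the composition, rather than the amount, differed. IgM made up 97.8%, 94.6%, 95.9% and 93.0% of heavy chain constant counts in control Ab mice 1, 2, 6 and 9. It made up 94.7%, 93.6%, 93.5% and 90.4% in anti-BAFF Ab mice 5, 7, 8 and 10. The ranges overlapped, and the means of 95.3% ± 2.03 and 93.1% ± 1.86 (SD, n = 4) differed by -2.26 percentage points with p 0.200 in a two-sided exact permutation test, 0.571 after Benjamini-Hochberg adjustment over the 6 shares and ratios tested. The difference was -1.37 percentage points without anti-BAFF Ab mouse 10, -1.43 without control Ab mouse 1 and -0.487 with Igha left out of the total. With 4 mice against 4, the smallest p this test allows is 0.0286, and 1 result alone at that p cannot pass adjustment over the 6. The widest Wilson 95% interval of a single mouse's IgM share extended 0.913 percentage points to either side, and such intervals cover counting error only.

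IgA made up 1.11%, 2.01%, 1.72% and 2.87% of heavy chain constant counts in control Ab mice 1, 2, 6 and 9. In anti-BAFF Ab mice 5, 7, 8 and 10 it made up 0.960%, 4.28%, 2.71% and 7.01%. The second group held both the lowest and the highest share, and the means of 1.93% ± 0.731 and 3.74% ± 2.57 (SD, n = 4) differed with an exact permutation p of 0.286 (adjusted 0.571). Without mouse 10 the difference was 0.725 in place of 1.82 percentage points. The IgG share averaged 2.28% ± 1.25 and 2.57% ± 0.935 (SD, n = 4; exact permutation p 0.686, adjusted 0.686), and the sign of this difference of 0.291 percentage points turned without control Ab mouse 1 (-0.197) or without anti-BAFF Ab mouse 8 (-0.00820). The IgD share averaged 0.470% ± 0.205 and 0.630% ± 0.315 (SD, n = 4; exact permutation p 0.486, adjusted 0.583), and anti-BAFF Ab mouse 5 had the highest share, 1.05%. Without that mouse the difference was 0.0189 in place of 0.160 percentage points. The shares of the classes were of counts, without regard to gene length. With counts per kilobase, the differences in percentage points were -1.64 for IgM, 1.31 for IgA, 0.176 for IgG and 0.164 for IgD.

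Within IgG, the gene with the most counts differed from mouse to mouse. Ighg2c gave 57.6% and 60.2% of IgG counts in control Ab mice 2 and 6, Ighg1 gave 43.3% in mouse 1 and Ighg3 gave 56.9% in mouse 9. Among the anti-BAFF Ab-treated mice, Ighg2b led in mice 5 and 7 at 30.5% and 59.2%, and Ighg2c led in mice 8 and 10 at 37.7% and 58.4%. In mouse 5, Ighg1 was close behind Ighg2b at 28.8%, with overlapping Wilson 95% intervals. Per length, Ighg2c led in that mouse instead, at 1.57 FPKM against 1.36 FPKM for Ighg2b. No subclass led in every mouse of either group. These shares rested on 215 to 1073 IgG counts per mouse with control Ab and 49 to 220 with anti-BAFF Ab, and their widest Wilson 95% interval extended 13.3 percentage points to either side.

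**Figure D3:**
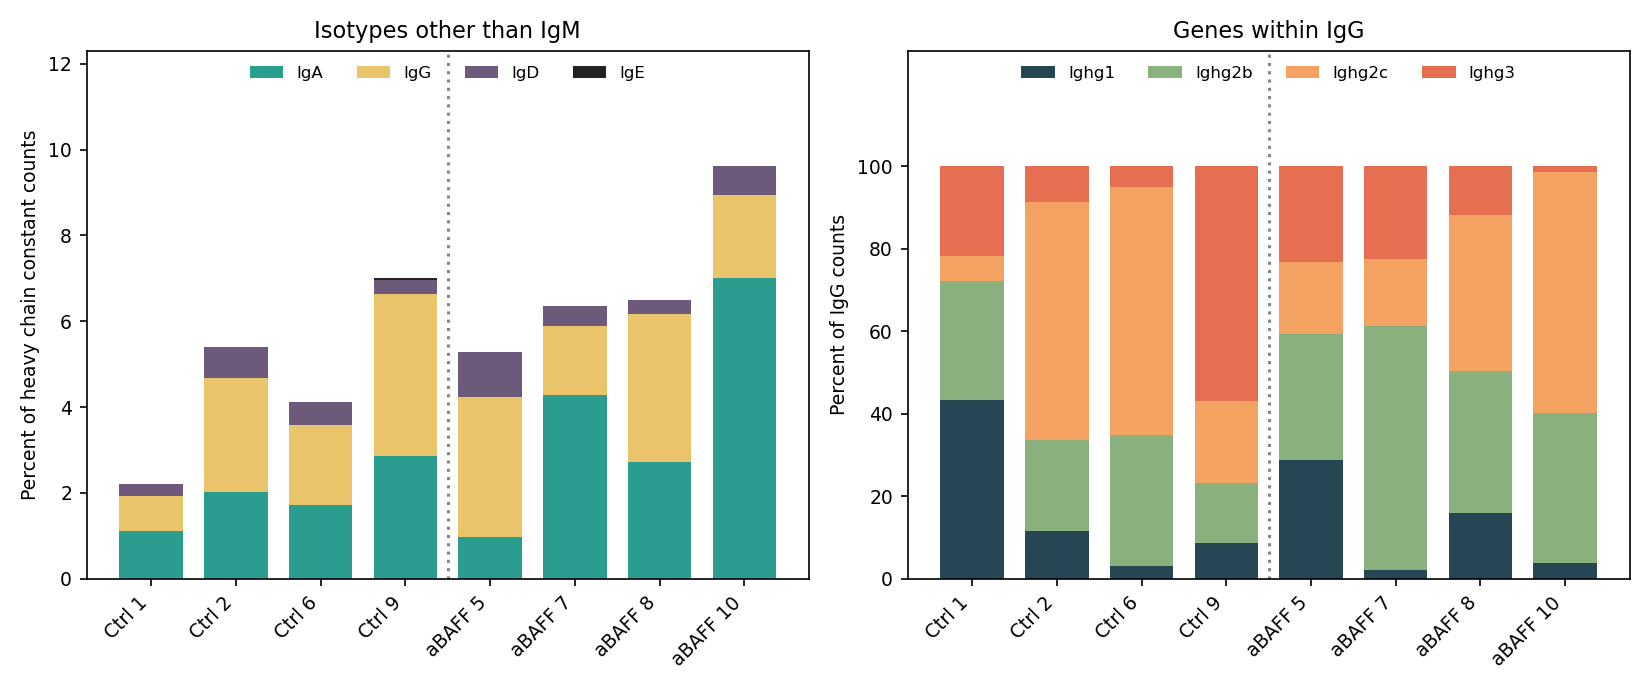
Stacked bars, 1 per mouse, of the classes other than IgM as a percent of all heavy chain constant counts (left, with IgM as the part not drawn) and of the 4 gamma genes as a percent of IgG counts (right); Ctrl is control Ab, aBAFF is anti-BAFF Ab, and the numbers are mouse numbers. Anti-BAFF Ab mouse 10 had the largest IgA share, 7.01%, and the subclass that led IgG differed among mice of the same group.

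Ighd and Jchain were set against Ighm to compare the naive B cell and joining chain messages with IgM. Both ratios were chosen with earlier results of these data known. There were 340, 130, 177 and 288 Ighm reads per Ighd read in control Ab mice 1, 2, 6 and 9, and 90.0, 203, 283 and 134 in anti-BAFF Ab mice 5, 7, 8 and 10. These ranges overlapped widely. On the log2 scale the Ighd to Ighm ratio was -7.75 ± 0.63 and -7.28 ± 0.69 (SD, n = 4), a difference of 0.47 with an exact permutation p of 0.400 (adjusted 0.583). That difference was 0.20 without anti-BAFF Ab mouse 5, 0.26 without control Ab mouse 1, 0.72 without control Ab mouse 2 and 0.74 without anti-BAFF Ab mouse 8. Jchain, which encodes the chain that links IgM and IgA into polymers, amounted to 8.02%, 8.36%, 8.98% and 10.6% of the Ighm count in control Ab mice 1, 2, 6 and 9. It amounted to 6.36%, 6.30%, 7.56% and 6.68% in anti-BAFF Ab mice 5, 7, 8 and 10. All control Ab-treated mice were above all anti-BAFF Ab-treated mice. The log2 ratio was -3.48 ± 0.18 and -3.89 ± 0.12 (SD, n = 4), a difference of -0.41 at an exact permutation p of 0.0286, the smallest 4 against 4 can give, and it did not pass adjustment over the 6 tests (0.171).

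The light chain constant genes, whose products pair with every heavy chain, offered another reference. Igkc and the 3 lambda genes Iglc1, Iglc2 and Iglc3 summed to 595 ± 139 CPM with control Ab and 92.9 ± 43.0 CPM with anti-BAFF Ab (SD, n = 4). Per kilobase of gene length, heavy chain constant counts were 0.638 to 0.744 times the light chain constant counts with control Ab. The ratio was 0.827 to 0.970 with anti-BAFF Ab, so the ranges were separate. This ratio was not tested, and its level depends on the deposited gene lengths, which both groups share.

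**Figure D4:**
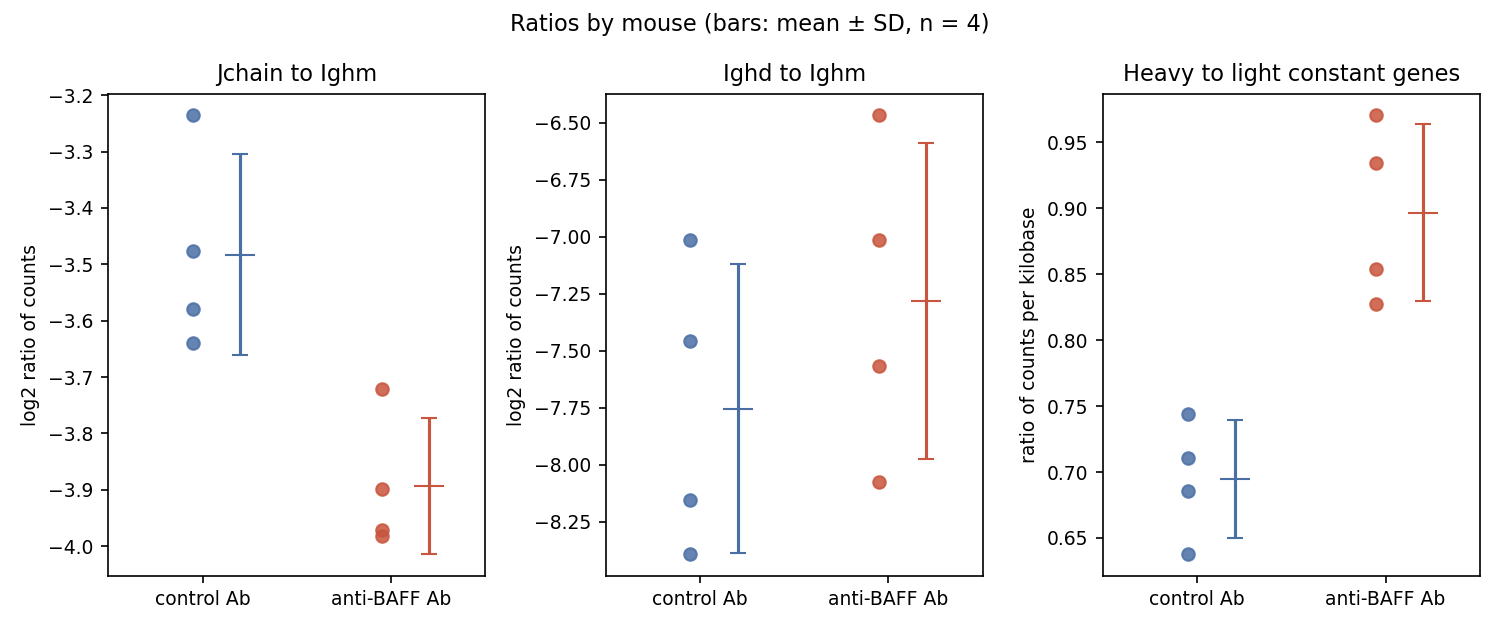
Log2 ratio of Jchain to Ighm counts (left), log2 ratio of Ighd to Ighm counts (middle) and ratio of heavy to light chain constant counts per kilobase (right), 1 point per mouse, with mean ± SD (n = 4) beside the points and vertical axes that do not start at 0. The groups were separate on the left and on the right, and overlapped in the middle.

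Several genes that work with the heavy chain fell as well. Of 8 antibody partner genes, the light chain constant genes, Jchain, the B cell receptor signaling chains Cd79a and Cd79b and the coactivator Pou2af1, 4 were called lower at an adjusted p below 0.05 by the edgeR QL test and 0 higher, beside 0.0564% of all genes tested called lower. These were Igkc (log2 fold change -2.69, SE 0.35), Iglc2 (-3.26, SE 0.40), Jchain (-2.77, SE 0.35) and Pou2af1 (-1.98, SE 0.24), each with an adjusted p of 0.0448. The median over the 8 was -2.26, against 0.00 over all genes tested. Cd79a, at -1.77, and Cd79b, at -0.68, did not pass the adjusted test. Among the 10 B cell markers, including Ms4a1 (-1.24), 0 were called and 8 were lower at an unadjusted p below 0.05, beside 1.24% of all genes tested, with a median of -1.32. What part these markers had in the heavy chain differences was not tested.

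**Figure D5:**
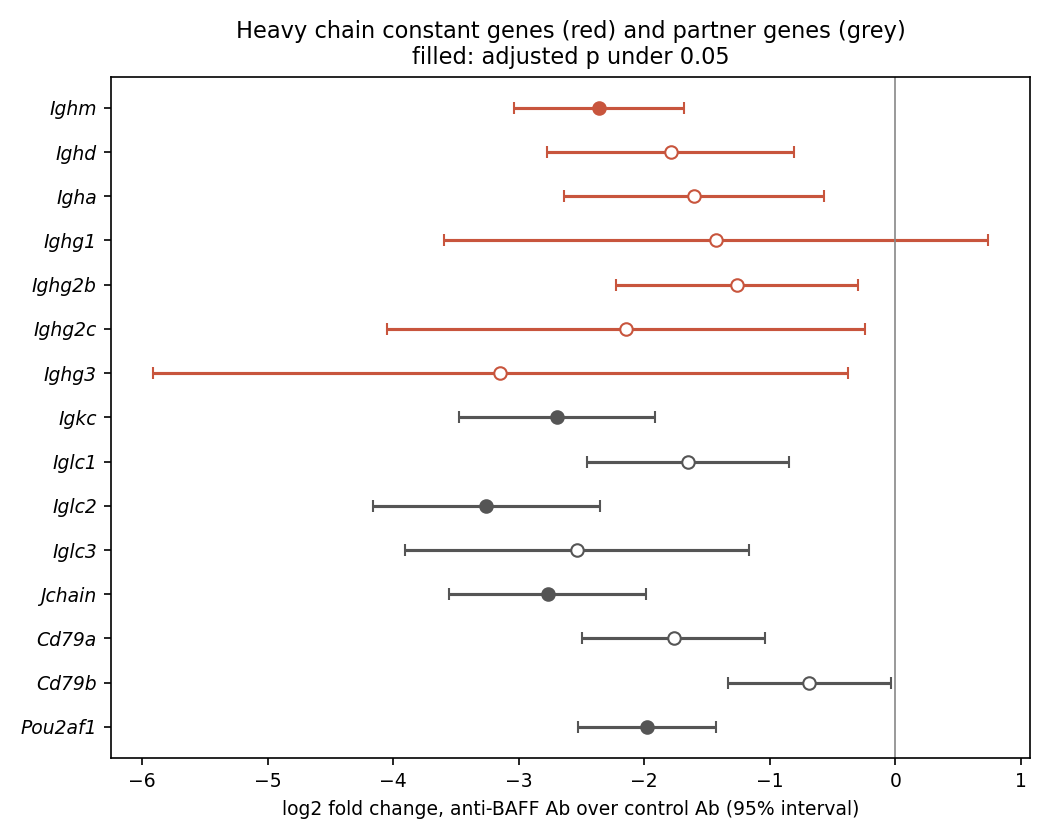
Log2 fold change of anti-BAFF Ab over control Ab with its 95% interval from the edgeR QL test, for the 7 heavy chain constant genes tested (red) and 8 partner genes (grey), with filled points for an adjusted p under 0.05. All 15 points lay below 0, 5 were filled, and the Ighg1 interval crossed 0.

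No gene on the plasma cell and secretion list or on the class switch list passed the adjusted test. Jchain, called lower above, was listed with the partner genes and the plasma cell markers instead. Of 10 plasma cell and secretion genes, 0 were called. By the edgeR QL test, 1 was lower at an unadjusted p below 0.05, beside 1.24% of all genes tested. This was the endoplasmic reticulum cochaperone Mzb1 (log2 fold change -2.07). The median of the list was -0.16, and Sdc1 and Xbp1, which many cells of the SVF express, stood at 0.01 and 0.00. Of 14 class switch genes, 13 were tested and 0 had an unadjusted p below 0.05 in either direction, with a median of 0.04. Most of them, such as the mismatch repair gene Msh6 (-0.02), are used by many cell types.

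The receptors that bind the constant regions were read by the class they recognise. Of 13 receptor and transporter genes, 12 were tested, with a median of -0.03, and 0 were called. By the edgeR QL test, 2 were lower at an unadjusted p below 0.05, beside 1.24% of all genes tested. These 2 were Fcmr, the receptor for IgM (log2 fold change -1.56), and Fcer2a, the low-affinity IgE receptor of B cells (-2.93). The receptors for IgG that macrophages carry stood at 0.19 for Fcgr1, -0.07 for Fcgr3 and -0.05 for Fcgr4, and the inhibitory Fcgr2b stood at -0.04. Fcgrt, which recycles IgG, stood at -0.01, and Fcer1a, the high-affinity IgE receptor chain of mast cells, at 0.42. Pigr, which carries polymeric IgA and IgM across epithelia, was scarce at 0.504 and 0.722 CPM.

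The genes whose mouse-to-mouse profile was nearest to each member were found by the root mean square difference of centred log2 CPM over the 8 mice, among all genes tested. For Ighm these were Igkc (0.21), Jchain (0.24) and Mzb1 (0.32), and the median gene lay at 1.31. Near Ighd were the mature B cell gene Cr2 (0.36) and the calcium channel gene Cacna1i (0.36). Ighg2b was nearest to Cxcr5 (0.23), a B cell homing receptor, then Cd79a (0.42) and Tnfrsf13c (0.43), which encodes the BAFF receptor. For Ighg3 and Ighg1 the nearest were variable region genes, Igkv10-94 (0.74) and Ighv9-3 (0.80), at larger distances. Igha was nearest to Amd2 (0.46) and Ighg2c to Crygc (0.56), which are not antibody genes. Ighm itself lay at 0.62 from Ighd, 0.71 from Ighg2b and 0.92 from Igha, so the members' profiles were less like one another than Ighm was like Igkc. These distances describe 8 mice that share the treatment difference, and they carry no test. Counts per mouse were 2842 to 26508 for Ighm but 14 to 131 for Ighd. What part counting error had in the larger distances of scarce members was not tested.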

How the data were processed

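Bulk RNA of the SVF of gonadal WAT was sequenced for 8 mice, grouped by the treatment in their labels (4 and 4). No mouse number occurs in both groups, and no pairing was made. The authors deposited raw counts per gene in 1 table, with coordinates and gene lengths. The processing notes name mm10. The aligner, counter and annotation release were not given in the sources used here. The deposited gene length, an other value in bases, gave FPKM. RefSeq (GRCm38.p6) held all 8 members, with 5′ ends identical to the deposited ones. At the 3′ end the deposited genes ran further, by 3 bases for Ighe and by 268 (Ighm) to 2064 (Ighg2c) for the others. Columns of per-sample values left out numbered 0. No library was a repeat of another (chi-square per degree of freedom of 7.75 or more for every pair within a group).

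The main test was edgeR's quasi-likelihood test (edgeR 4.0.16, R 4.3.3) after filterByExpr (minimum count 10) and TMM, with a treatment term alone, the robust option off and adjustment over all genes tested. Standard errors came from the fold change and its F statistic. The edgeR p-values set the group difference against the variation between mice, with each mouse as 1 replicate. CPM used TMM-scaled library sizes. Shares and ratios (1 count added to both genes for a log2 ratio) went into exact permutation tests (two-sided) in Python 3.11.15 with scipy 1.17.1. The pipeline was tested on simulated data. Alternatives were DESeq2 1.42.0, limma 3.58.1 on log2(FPKM + 1), other normalizations, filters and dispersion settings, per-kilobase shares, other denominators and pseudocounts, and leaving out mice. The genes named were the 8 members, genes of the lists, and the 3 nearest profiles of each member, of which some are not reported here. The members, the lists and the Ighd to Ighm and Jchain to Ighm ratios were chosen with earlier results of these data known.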

Additional observations from a re-analysis of the deposited data

Results flagged for a closer look

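Within groups of 4 mice, levels, shares and ratios were searched for a mouse far from the other 3 by Dixon's ratio of gap to range, with 29 groups of values examined, of which chance flags about 1.45. Control Ab mouse 9 was flagged for both Ighg3 and Ighe. Its Ighg3 level was 37.8 CPM, and the gap to the next control Ab-treated mouse made up 0.956 of the range. Its Ighe level was 0.805 CPM, from 13 counts, with 0 counts in the other 3. With those 3 at 0, any count in mouse 9 would have been flagged, so the chance rate does not apply to Ighe.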

How the results depend on the processing

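Ighm kept its direction in the 19 alternatives and its call in those that kept all mice except edgeR's robust option, where the log2 fold change was -2.36 and the adjusted p 0.0518. With 1 mouse left out, the log2 fold change lay between -2.59 and -2.19 and the adjusted p between 0.0532 and 0.186, so the call was lost without any 1 of the 8 mice. It was lost too (-2.32, adjusted p 0.110) without both mice high in epididymis genes, an alternative chosen after seeing the data. In each of these fits with edgeR's quasi-likelihood test, 0 members were called. DESeq2 on all mice called 2, beside 0.253% of the genes to which it gave an adjusted p. The share of all genes called is not given here for the other alternatives. Ighd passed with DESeq2 (-1.80, adjusted p 0.0138) and with edgeR's likelihood ratio test (-1.79, adjusted p 0.0392, also chosen after seeing the data). Apart from fewer mice in the fits that left some out, the cause was not tested. The IgG share difference turned to -0.197 percentage points without control Ab mouse 1 and -0.00820 without anti-BAFF Ab mouse 8, and lay between -0.197 and 0.787 with 1 mouse left out.

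With 1 mouse left out, the log2 fold change of Ighg3 lay between -3.87 and -0.83, the latter without control Ab mouse 9, and that of Ighg1 between -2.28 and -1.03, the former without anti-BAFF Ab mouse 5. Ighd lay between -2.41 and -1.55, Ighg2b between -1.65 and -1.04, Ighg2c between -2.79 and -1.81 and Igha between -1.96 and -1.17. The Jchain to Ighm difference lay between -0.47 and -0.33, where 3 mice against 4 cannot give an exact permutation p under 0.0571. No paired analysis was possible because the groups share no mouse number. The IgD share has no value when Ighd leaves the denominator, likewise IgA and Igha, and Ighe, which the main filter removed, was fitted by the edgeR quasi-likelihood test without the filter (adjusted p 0.979) and by DESeq2 (adjusted p 1.00). Depth limits Ighe and the gamma genes with 1 to 3 counts in a mouse.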
